A study of Gallus gallus with 77 samples.

Results

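The HOX genes measured here were the 40 gene names on a transcription factor array that begin with HOX, of 1507 gene names in all, after names that end in mm and a digit (mismatch controls) had been set aside. Of these 40, 38 carry a cluster letter, namely 11 of cluster A, 9 of cluster B, 9 of cluster C and 9 of cluster D. The other two, HOX11 and HOX11L, carry none. HOX11 is an earlier name of TLX1, a homeobox gene that lies outside the clusters, and both names are given apart below. The members were taken by name and not by a measured value, with earlier results of these data known. The cultures came from White Leghorn chicks in their second week after hatching or the week that followed. Sensory epithelia of the cochlea, in which supporting cells surround the hair cells, were isolated with thermolysin, cut into pieces and grown for a week or more on fibronectin. A pulsed laser microbeam cut linear wounds into the cultures, which recovered for 30 min or for 1, 2 or 3 hr. Controls of the same recovery time stood beside the microscope stage and received no lesion. Several lesioned and several unlesioned cultures were pooled into each biological sample, and their RNA was amplified before labelling. Each time point had 2 biological replicates. Within a replicate, 1 lesioned and 1 control RNA were hybridized repeatedly with their dyes switched, on 25 arrays at 30 min, 17 at 1 hr, 15 at 2 hr and 20 at 3 hr. The laser RNA was in Cy3 on 38 of the 77 arrays and in Cy5 on 39. Each time point had its own controls. Pieces of epithelium in culture for days stand in for the cochlea here, so that the levels are those of cultured epithelium and not of the organ.

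HOX genes encode homeodomain transcription factors and stand in 4 clusters, A to D, in birds and mammals. Genes that hold the same place in different clusters form paralog groups, which run from 1 to 13. Low numbers are switched on early and far forward in the embryo, beginning in the hindbrain next to which the ear forms, and high numbers are switched on later and further back, in the trunk, the limb buds and the tail. HOX proteins bind DNA together with the TALE homeodomain proteins of the PBX and MEIS families, and Trithorax and Polycomb proteins such as MLL and BMI1 keep the clusters active or silent. The array held 11 names of cluster A (among them HOXA2 to HOXA7, HOXA9, HOXA10, HOXA11 and HOXA13), 9 of cluster B (HOXB1, HOXB2, HOXB3, HOXB5 to HOXB9 and HOXB13), 9 of cluster C (HOXC4, HOXC5, HOXC6, HOXC8 to HOXC13) and 9 of cluster D (HOXD1, HOXD3, HOXD4 and HOXD8 to HOXD13). The probes were designed on the human genes and hybridized with labelled chicken RNA targets. Probes of paralogs may also take up each other's transcripts, so that values of single paralogs are uncertain to that extent. In the RefSeq gene table of the chicken assembly GRCg7b, 34 of the 38 cluster names have an entry under the same symbol, and HOXB9, HOXC4, HOXC5 and HOXC6 were not matched by symbol. In that table HOXD9 lies between HOXD8 and HOXD10, and HOXC9 lies between HOXC8 and HOXC10.

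Values are scanner signals and log2 ratios. A signal is the mean pixel intensity of a spot, averaged over both channels and both duplicate spots, with no correction. It depends on the probe as well as on the transcript, so that each probe is compared only with itself. A ratio is laser over control on the log2 scale, after background correction and a loess curve within each array, as the mean over both dye orientations, and a positive value stands for more signal from the lesioned cultures. Errors are standard errors (SE) over 2 biological replicates, from 1 limma model of the 8 replicates. A gene passed the threshold of the study with an unadjusted p under 0.05 and over 1.2-fold. Adjusted p-values are Benjamini-Hochberg values over all 1504 genes tested. The median array had a signal of 1234 at 30 min, 2885 at 1 hr, 1959 at 2 hr and 1389 at 3 hr, and signal over local background was lowest at 1 hr (2.76) and highest at 30 min (5.64). Over all genes, 2 arrays of replicate 1 at 30 min, both with the laser RNA in Cy5, had log2 ratios with the widest spread of all 77 (standard deviations of 0.925 and 0.857, against 0.474 in the median array). Results that rest on them are given with and without them.

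The direction of the ratios rests on the labels, and across all genes the dye orientations of a replicate did not run together. Array titles carry a digit that was read as the dye of the lesioned sample, and the scanned images are named for the same dye on all 77 arrays. The log2 ratios that the authors deposited have the same direction. After the sign was turned where the laser RNA was in Cy3, a laser effect has the same sign in both orientations. A difference between dyes then has opposite signs in them. Across all genes tested the orientations correlated between −0.64 and −0.24 in the 8 replicates. Across the 39 HOX genes the correlation was below 0 in all but 1 of the 8 replicates, from −0.70 in replicate 2 at 30 min to −0.18 in replicate 1 at 3 hr, and it was 0.27 in replicate 1 at 30 min. These correlations run across genes, which share arrays and are not replicates. For this reason values with no array turned, Cy5 over Cy3 on every array, are also given. They stand beside the main values of the genes with an unadjusted p under 0.05 that the results turn on. If the labels hold, the laser effect cancels in these values and the difference between dyes is left. Their sign then gives no direction of the laser ratio.

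Most HOX probes gave signals that were near those of the control spots. A gene was taken as detectable where 80% or more of a time point's arrays had a signal of 1000 or above. By this rule 12 of the 40 HOX genes were detectable at 30 min, 35 at 1 hr, 33 at 2 hr and 23 at 3 hr. Of all genes, 32.1% were detectable at 30 min, 92.2% at 1 hr, 85.5% at 2 hr and 57.3% at 3 hr, so that the HOX genes followed the array as a whole. There were 11 HOX genes that were detectable at all 4 time points, against 29.8% of all genes, namely HOXA3, HOXA4, HOXA5, HOXA6, HOXB6, HOXB13, HOXC6, HOXC11, HOXD1, HOXD8 and HOXD9. They come from all 4 clusters and from paralog groups 1, 3 to 6, 8, 9, 11 and 13. HOXB1, HOXB5, HOXC10 and HOXD10 were detectable at none, which held for 6.37% of all genes. The level of 1000 was below the median control spot of the median array at 1 hr (2252), 2 hr (2020) and 3 hr (1249), and above it at 30 min (865). The mean signal was above this median for 37 HOX genes at 30 min, 27 at 1 hr, 18 at 2 hr and 26 at 3 hr. Of all genes, 97.3%, 70.9%, 57.4% and 64.4% were above it at these time points. It was above the 95th percentile of the control spots for 7, 7, 1 and 3 HOX genes, and HOXD9 was the 1 gene at 2 hr. That percentile was passed by 24.2%, 28.8%, 12.9% and 15.3% of all genes, respectively. Detection by this rule thus did not separate most HOX probes, or most genes of the array, from the control spots.

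HOXC10, a gene of the lumbar and hindlimb level of the trunk, was the only HOX gene left out of the tests. Its signal had a median of 581 over the arrays at 30 min (from 165 to 2561), 649 at 1 hr (228 to 2412), 555 at 2 hr (233 to 1841) and 677 at 3 hr (335 to 1556). It reached 1000 on 5 of 25, 2 of 17, 1 of 15 and 2 of 20 arrays. Replicates 1 and 2 had log2 ratios of −0.10 and −0.11 at 30 min, −0.02 and −0.01 at 1 hr, 0.01 and 0.08 at 2 hr and 0.01 and 0.02 at 3 hr. Every replicate was thus within 0.11 of 0, at a signal below the median control spot at each time point.

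Ratios of the other 39 HOX genes were small and lay on both sides of 0 at each time point. At 30 min they ran from −0.42 (HOXD9) to 0.20 (HOXD4), with a median of 0.02 and 23 of 39 above 0. At 1 hr they ran from −0.17 (HOXD3) to 0.18 (HOXB7), with a median of −0.00 and 19 above 0. At 2 hr the range was −0.26 (HOXC12) to 0.21 (HOXA3), with a median of 0.00 and 20 above 0. At 3 hr the range was −0.18 (HOXB6) to 0.24 (HOXB8), with a median of 0.03 and 22 above 0. Medians of all genes were −0.00, −0.01, −0.01 and −0.00 in the same order. The median size of a ratio, without its sign, was 0.08, 0.04, 0.07 and 0.06 for the HOX genes and 0.07, 0.05, 0.08 and 0.06 for all genes. The median difference between replicates 1 and 2 of a HOX gene was 0.15, 0.11, 0.11 and 0.13, larger than the median ratio at each time point. Both replicates had the same sign for 19, 17, 21 and 21 of the 39 HOX genes, and for 56.4%, 51.7%, 52.3% and 50.4% of all genes.

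**Figure D1:**
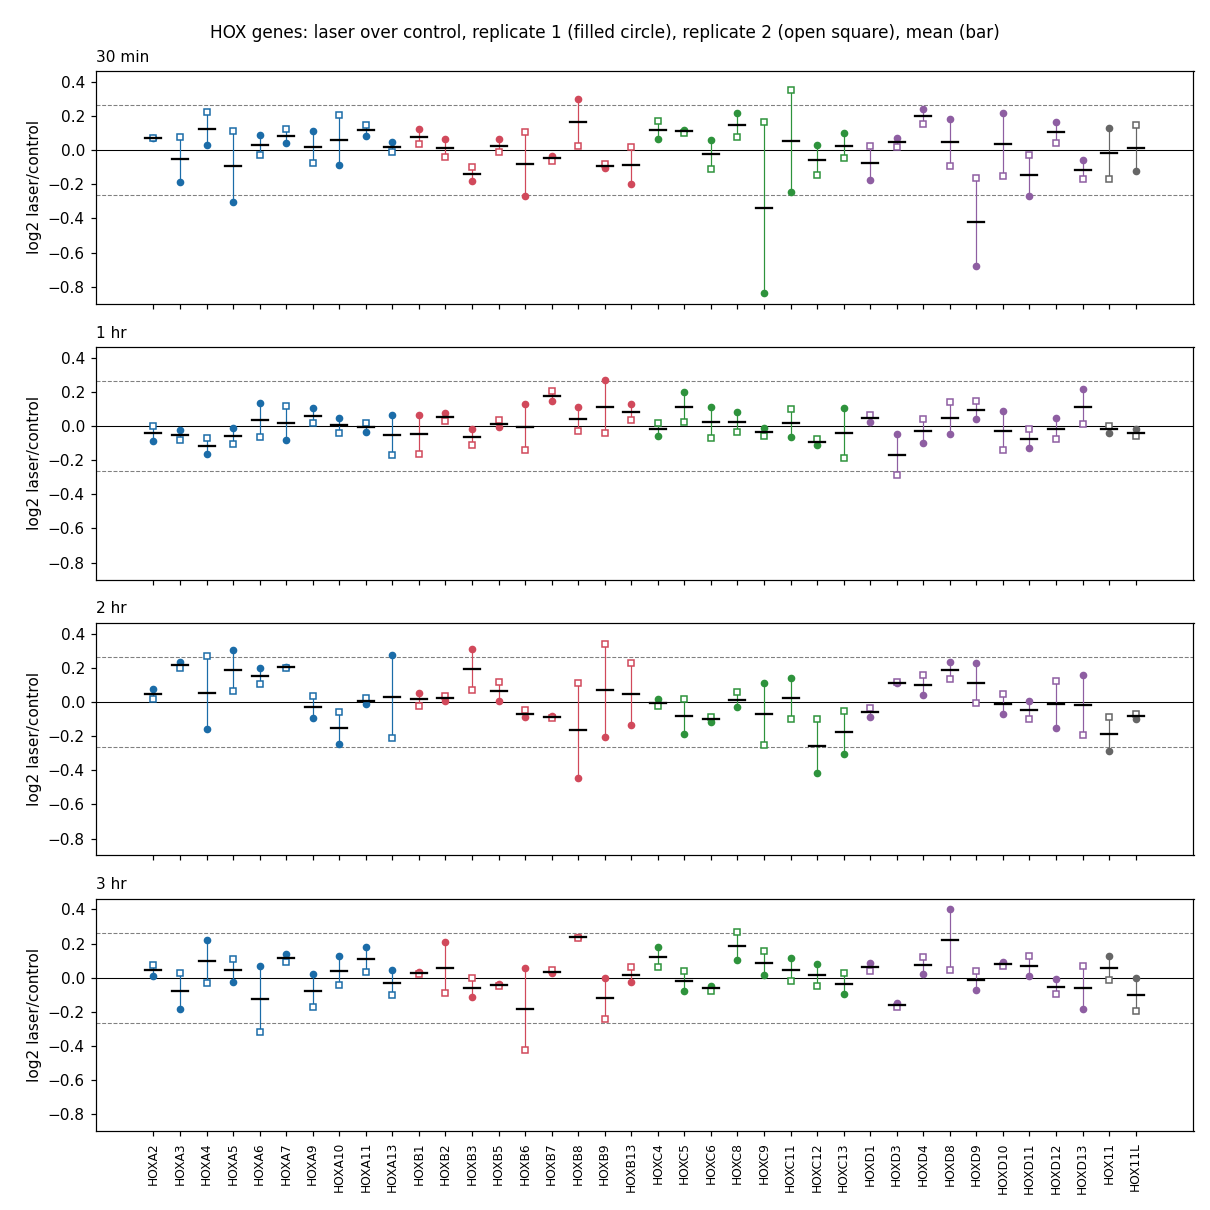
Log2 ratio of laser over control for 38 of the 39 HOX genes tested, with 1 panel for each time point. Points are the 2 biological replicates, the bar is their mean, colours are clusters A (blue), B (red), C (green) and D (purple) and names with no cluster letter (grey), and dashed lines mark a 1.2-fold change. Replicate 1 of HOXC9 (−0.84) and HOXD9 (−0.68) at 30 min lie furthest from 0.

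At the threshold of the study, 1 HOX gene differed at 30 min, HOXD9, and none at 1 hr, 2 hr or 3 hr. Of all genes, 3.46% passed at 30 min, 0.332% at 1 hr, 4.19% at 2 hr and 1.53% at 3 hr. With no fold threshold, at an unadjusted p under 0.05, the counts were 2 at 30 min (HOXD4 and HOXD9), 1 at 1 hr (HOXB7), 4 at 2 hr (HOXA3, HOXA7, HOXB3 and HOXC12) and 2 at 3 hr (HOXC8 and HOXD8), 9 genes in all. The share of all genes was 8.91%, 2.66%, 10.9% and 3.79%, so that the HOX counts were near the background at each time point. HOXD9 and HOXC12 were below 0 and the other 7 above 0. HOXD4, HOXA7 and HOXC8 were not detectable at the time points given here by the detection rule, and the others were. No HOX gene had an adjusted p under 0.05 at any time point, which also held for all genes (0%). In limma the smallest adjusted p of a HOX gene was 0.211 (HOXD9 at 30 min). The 95% interval of a ratio reached 0.19 to either side in the median HOX gene, a factor of 1.14, and 154 of the 156 intervals (39 genes at 4 time points) lay wholly within 1.5-fold of no change. The exceptions were both at 30 min. These intervals bound the ratio on the array and not the change of the transcript, as most HOX probes gave signals near the control spots. The study proposes that hybridization across species may compress the range of such ratios.

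Among the anterior genes, paralog groups 1 to 3, the 3 genes of group 3 lay on the same side of 0 at 1 hr, 2 hr and 3 hr, and the genes of groups 1 and 2 named here stayed near 0. The 3 genes of group 4 likewise lay on the same side of 0 at 30 min, 1 hr and 3 hr. HOXB1 and HOXD1 of group 1 had ratios from −0.08 (HOXD1 at 30 min) to 0.08 (HOXB1 at 30 min). For HOXA2 and HOXB2, which pattern the hindbrain and the second pharyngeal arch, the range was −0.04 to 0.07. HOXA3, HOXB3 and HOXD3 act in the hindbrain and the pharyngeal region. At 2 hr all 3 were above 0, at 0.21 ± 0.09 (SE), 0.19 ± 0.08 and 0.11 ± 0.08 (unadjusted p = 0.028, 0.038 and 0.18 in limma, adjusted p = 0.374, 0.412 and 0.637). At 1 hr all 3 were below 0 (−0.05, −0.06 and −0.17), and so they were at 3 hr (−0.08, −0.06 and −0.16). The replicates of HOXA3 at 2 hr were 0.23 and 0.20, those of HOXB3 0.31 and 0.07, and those of HOXD3 0.11 and 0.12, so that every replicate was above 0. By dye, the laser RNA in Cy3 gave 0.34 and 0.47 for HOXA3 and the laser RNA in Cy5 gave 0.12 and −0.08, and HOXB3 was 0.48 and 0.04 against 0.15 and 0.10. For HOXD3 at 2 hr the means of the dye orientations had opposite signs, and 7 of 15 arrays were above 0. Opposite signs in the orientations were also found for all 3 genes at 3 hr and for HOXA3 at 1 hr. The difference between 2 hr and 1 hr had an unadjusted p of 0.048 for HOXA3, 0.049 for HOXB3 and 0.028 for HOXD3, and no HOX gene had an adjusted p under 0.947 in that contrast. Without replicate 1 at 2 hr, HOXB3 was 0.07 (p = 0.502). With no array turned, HOXA3 and HOXB3 were −0.19 and −0.07 at 2 hr. HOXD3 was 0.15 at 1 hr and at 2 hr and 0.19 at 3 hr on that scale. Its probe was not detectable at 1 hr or at 3 hr by the detection rule.

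HOXD1, which in the mouse acts in pain-sensing neurons, was named in the study for the cochlea. Its replicates were −0.17 and 0.02 at 30 min, 0.02 and 0.06 at 1 hr, −0.09 and −0.03 at 2 hr and 0.09 and 0.04 at 3 hr. Means were −0.08, 0.04, −0.06 and 0.06, each ± 0.08, with a smallest p of 0.354. The signal of its probe had medians of 2064, 3777, 2579 and 2582 over the arrays of the 4 time points.

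In the central groups 4 to 8, which pattern the neck and thorax, HOXD4, HOXA7, HOXB7, HOXC8 and HOXD8 were higher at 1 time point each at an unadjusted p under 0.05, with none past 1.2-fold. HOXD4, a hindbrain and neck gene, was 0.24 and 0.15 in the replicates at 30 min (mean 0.20 ± 0.08, p = 0.027, adjusted p = 0.450), and between −0.03 and 0.10 later. The other group 4 genes tested, HOXA4 and HOXC4, were 0.12 and 0.11 at 30 min. HOXA4 is another gene the study named for the cochlea. Its replicates were 0.03 and 0.22 at 30 min, −0.17 and −0.07 at 1 hr, −0.16 and 0.27 at 2 hr and 0.22 and −0.03 at 3 hr, on both sides of 0 at 2 hr and 3 hr. Its means were 0.12, −0.12, 0.05 and 0.10 (each ± 0.10), with a smallest p of 0.252. HOXB7 had 0.15 and 0.21 at 1 hr, the largest ratio of that time point (0.18 ± 0.07, p = 0.031, adjusted p = 0.999), and was −0.05, −0.09 and 0.03 at the other time points. At 1 hr its 4 values by replicate and orientation were 0.22, 0.07, 0.30 and 0.11, all above 0. HOXA7 had 0.21 and 0.20 at 2 hr (0.20 ± 0.08, p = 0.023, adjusted p = 0.353) and 0.14 and 0.09 at 3 hr. The probes of HOXD4 at 30 min and HOXA7 at 2 hr were not detectable by the detection rule, while HOXB7 was at 1 hr.

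The 3 genes of group 8 were above 0 at 3 hr, as they also were at 30 min (0.05 to 0.16) and 1 hr (0.02 to 0.05). All genes tested of groups 2, 4, 7, 10 and 11 were above 0 at 3 hr too. At 3 hr HOXB8, HOXC8 and HOXD8, genes of the trunk, had means of 0.24 ± 0.11, 0.19 ± 0.08 and 0.22 ± 0.10, with p = 0.058, 0.039 and 0.044 (adjusted p = 1.00 for each). The study scored HOXD8 as up-regulated by over 1.2-fold at 3 hr in the laser time courses of both cochlea and utricle. The replicates were 0.24 and 0.23 for HOXB8, 0.10 and 0.27 for HOXC8 and 0.40 and 0.04 for HOXD8, all above 0, and so were all 12 of their values by replicate and orientation, from 0.02 to 0.44. Agreement between the replicates was close for HOXB8, while HOXD8 rested on replicate 1 and was 0.04 (p = 0.745) without it. HOXC8 was 0.10 (p = 0.389) without replicate 2. With no array turned the 3 genes were 0.09, 0.04 and 0.03 at 3 hr. HOXB8 and HOXC8 were not detectable at 3 hr by the detection rule, while HOXD8 was. At 2 hr HOXB8 was −0.17 ± 0.11, with replicates of −0.45 and 0.11, HOXC8 was 0.01 and HOXD8 was 0.18. Group 6 was on the other side of 0 at 3 hr, with HOXA6 at −0.12, HOXB6 at −0.18 and HOXC6 at −0.06, with a smallest p of 0.14.

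Among the posterior genes, groups 9 to 13, HOXD9 and HOXC12 had an unadjusted p under 0.05, at 30 min and at 2 hr. HOXD9 is a gene of the posterior trunk and limb buds. Its raw signal in replicate 1 at 30 min was 6532 for the laser RNA and 6274 for the control in the orientation with laser RNA in Cy3, and 1890 and 2742 in the other. In replicate 2 it was 2124 and 2507 in the first orientation and 8145 and 7486 in the second. After normalization the ratios of replicate 1 were −0.11 and −1.25 in these orientations and those of replicate 2 were −0.08 and −0.25, so that all 4 values were below 0. With the laser RNA in Cy3, single arrays ran from −0.54 to 0.49 (median −0.11, 8 of 12 below 0). With it in Cy5 they ran from −3.37 to 0.49 (median −0.58, 11 of 13 below 0). The mean was −0.42 ± 0.11, or 1.34-fold lower (p = 0.0018, adjusted p = 0.211 in limma). The 2 arrays of widest spread gave −3.37 and −2.99. Without both, replicate 1 was −0.29 and the mean −0.23 ± 0.08 (p = 0.016, adjusted p = 0.605), which no longer passed 1.2-fold. Without replicate 1 it was −0.16 (p = 0.198). At 1 hr, 2 hr and 3 hr the mean was 0.09, 0.11 and −0.02 (each ± 0.11), with p = 0.41, 0.33 and 0.89.

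**Figure D2:**
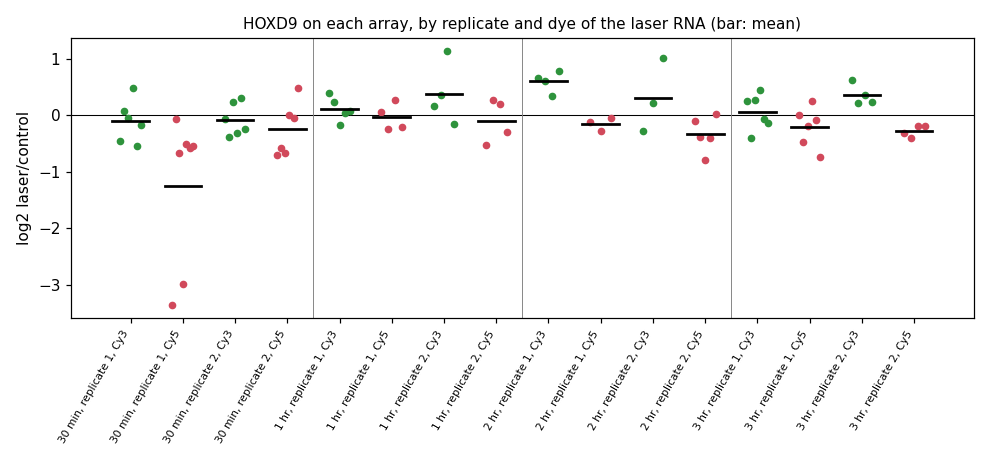
Log2 ratio of laser over control for HOXD9 on each of the 77 arrays, grouped by time point, biological replicate and the dye of the laser RNA (green Cy3, red Cy5), with the mean of each set as a bar. Of the 13 arrays at 30 min with the laser RNA in Cy5, 2 arrays of replicate 1 lie at −3.37 and −2.99, and at 1 hr, 2 hr and 3 hr the sets with the laser RNA in Cy3 have means above 0 and those in Cy5 below 0.

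The neighbours of HOXD9 did not follow it at 30 min. HOXD8 was 0.05 ± 0.10 and HOXD10 0.03, and further along the cluster HOXD11 was −0.15, HOXD12 0.10 and HOXD13 −0.12, with a smallest p of 0.0985. Of its paralogs, HOXC9, which separates thoracic from limb motor neurons, was −0.34 ± 0.16 (p = 0.060), HOXB9 was −0.10 and HOXA9 0.02. HOXC9 had −0.84 in replicate 1 and 0.16 in replicate 2, on opposite sides of 0. Its SE is shared over the time points and is far narrower than these values lie apart. The laser RNA in Cy3 gave −0.35 in replicate 1, the laser RNA in Cy5 gave −1.33, and its lowest single array at 30 min was −3.79. HOXC9 was −0.15 at 30 min with no array turned. Its probe was not detectable at 30 min by the detection rule. Without the 2 arrays of widest spread HOXC9 was −0.38 ± 0.17 (p = 0.038, adjusted p = 0.638 in limma). Those 2 arrays gave −0.41 and −1.40 for HOXC9, so that its lowest array (−3.79) was still in this mean. HOXC9 was then the 1 HOX gene past the threshold at 30 min, against 1.53% of all genes. Replicate 2, which holds neither of the 2 arrays left out, stayed at 0.16, so that the replicates still lay on opposite sides of 0. At the later time points it was −0.04, −0.07 and 0.09.

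HOXC12, a gene at the far end of cluster C, was −0.41 and −0.10 in the replicates at 2 hr. Its 4 values by orientation were −0.41, −0.42, −0.06 and −0.14, all below 0, and the mean was −0.26 ± 0.09 (p = 0.013, adjusted p = 0.281). This was just inside 1.2-fold. Without replicate 1 it was −0.10 (p = 0.371). HOXC12 was −0.06, −0.09 and 0.02 at the other time points. The 9 genes of group 13, 12 and 11 had no other ratio with a p under 0.05. HOXC13, a gene of hair follicles in the mouse, was −0.18 at 2 hr (p = 0.080), and HOXD13 and HOXA13, genes of the digits, stayed between −0.12 and 0.11. HOX11 and HOX11L, the names with no cluster letter, were closest to the threshold at 2 hr for HOX11 (−0.19, p = 0.054), and HOX11L was between −0.10 and 0.01.

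By cluster, the median ratio lay between −0.08 (cluster C at 2 hr) and 0.06 (cluster D at 3 hr). At 2 hr 8 of 11 genes of cluster A were above 0 and 6 of 8 of cluster C below 0, with medians of 0.05 and −0.08. Cluster B had 5 of 9 below 0 at 30 min (median −0.05), 6 of 9 above 0 at 1 hr (0.04) and at 2 hr (0.02), and 5 of 9 above 0 at 3 hr (0.02). For cluster D the medians were 0.03, −0.02, −0.01 and 0.06. Medians of replicates 1 and 2 had opposite signs for cluster B at 1 hr (0.11 and −0.03) and at 2 hr (−0.09 and 0.07), and the same sign for cluster A at 2 hr (0.07 and 0.03) and cluster C at 2 hr (−0.07 in each). Anterior, central and posterior genes had medians of −0.01, 0.06 and 0.02 at 30 min, −0.05, 0.02 and −0.01 at 1 hr, 0.03, 0.03 and −0.01 at 2 hr and −0.01, 0.06 and 0.02 at 3 hr. These medians are given as a description, with no test.

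Both dye orientations gave opposite directions for most HOX genes. The mean ratio with the laser RNA in Cy3 and that in Cy5 had opposite signs for 28 of 39 HOX genes at 30 min, 27 at 1 hr and 25 each at 2 hr and 3 hr. For all genes this share was 64%, 78.1%, 71.8% and 73.3%. All 4 values, 2 replicates in 2 orientations, had the same sign for 3 HOX genes at 30 min (HOXC5 and HOXC8 above 0, HOXD9 below), 1 at 1 hr (HOXB7), 5 at 2 hr (HOXA7, HOXB3 and HOXD4 above 0, HOXA10 and HOXC12 below) and 4 at 3 hr (HOXB8, HOXC8, HOXD8 and HOXD10, all above 0). The background was 8.38%, 3.66%, 7.98% and 7.51% of all genes. HOXC8 was the only HOX gene in this set at 2 of the time points. Its means were 0.15 ± 0.08 at 30 min (p = 0.095 in limma) and 0.19 ± 0.08 at 3 hr. Its probe was not detectable at 30 min or at 3 hr by the detection rule. The same held for HOXC5 at 30 min, HOXA7 and HOXD4 at 2 hr, and HOXB8 and HOXD10 at 3 hr.

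**Figure D3:**
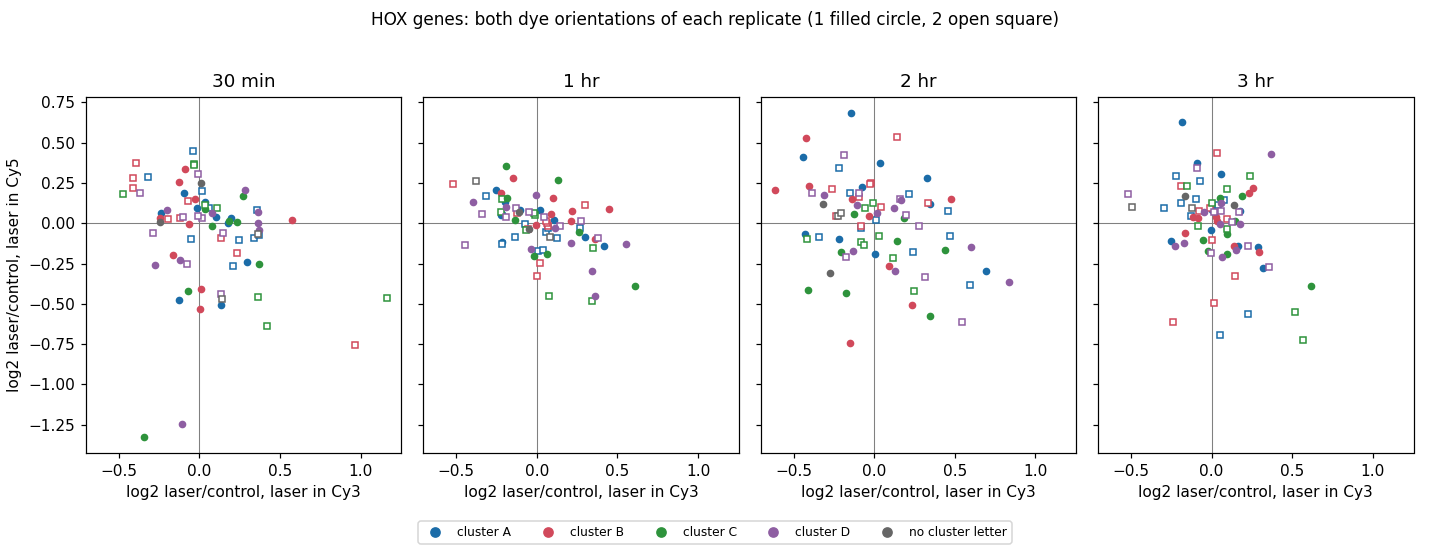
Log2 ratio of laser over control for 38 of the 39 HOX genes, with the laser RNA in Cy3 on the x axis and in Cy5 on the y axis, for each biological replicate (replicate 1 filled circles, replicate 2 open squares) in 1 panel per time point, coloured by cluster. Values that did not depend on the dye would follow a rising line, and the correlation across all 39 was instead below 0 in all replicates other than replicate 1 at 30 min (0.27).

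A difference between Cy5 and Cy3 that stayed when the dyes were switched was fitted in limma to the 16 means per replicate and orientation. An adjusted p under 0.05 was found for 32.9% of all genes and, near this background, for 11 of 39 HOX genes. Of these, 8 were higher in Cy3 (17.3% of all genes) and 3 were higher in Cy5 (15.6% of all genes). Among those higher in Cy3 were HOXC6, HOXC11, HOXA6, HOXD9, HOXD1, HOXA9 and HOXC13, and those higher in Cy5 were HOXB1, HOXA13 and HOXD11. HOXC6, a gene of the thorax, had the largest, −0.42 ± 0.06 (adjusted p = 4.2e-05). It was above 0 with the laser RNA in Cy3 (0.10 to 0.61) and below 0 with it in Cy5 (−0.72 to −0.19) in 8 of 8 replicates. In the laser over control ratio the 2 orientations nearly cancelled, and HOXC6 was between −0.10 and 0.02 at all time points. HOXC11 was −0.34 ± 0.07 (adjusted p = 0.0023), HOXA6 −0.28 ± 0.06 (0.0012) and HOXD9 −0.26 ± 0.06 (0.0026), and Cy3 exceeded Cy5 in both orientations in 6, 7 and 6 of 8 replicates. The median size of the difference was 0.09 for HOX genes and 0.11 for all genes, against 0.06 for the ratio of laser over control of a HOX gene.

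**Figure D4:**
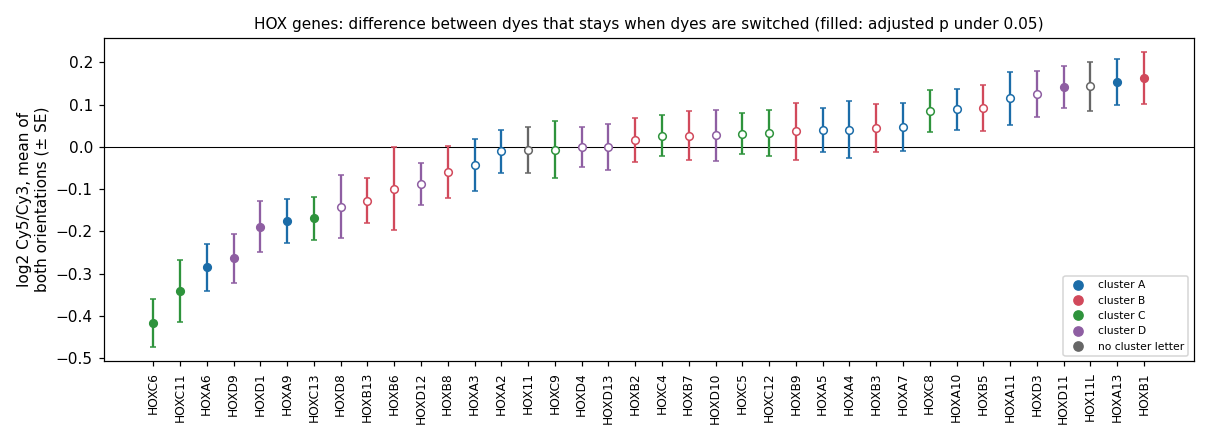
Log2 ratio of Cy5 over Cy3 for 38 of the 39 HOX genes, as the mean over both dye orientations in 8 replicates with its standard error, in ascending order from HOXC6 (−0.42) to HOXB1 (0.16). Filled points had an adjusted p under 0.05, and colours are the clusters.

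With no array turned, 5 HOX genes passed an unadjusted p under 0.05 and 1.2-fold at 30 min (HOXB5, HOXB6, HOXC6, HOXC11 and HOXD9), 2 at 1 hr (HOXC6 among them), 10 at 2 hr and 5 at 3 hr (HOXA4, HOXA6, HOXA9, HOXC6 and HOXC11). The shares of all genes were 13.2%, 17.4%, 24.5% and 17.6%. HOXD9 was −0.33 at 30 min (p = 0.011), −0.15 at 1 hr, −0.35 at 2 hr (p = 0.0078) and −0.22 at 3 hr on this scale. In the mean of both orientations its Cy3 signal was thus the higher one at each time point. At 30 min this came only from the orientation with the laser RNA in Cy5. With the laser RNA in Cy3 the laser over control ratio was below 0 in both replicates, so that Cy5 was higher there. If the labels hold, the laser effect cancels on this scale, which then does not show whether 30 min stood apart. At the time points given above HOXD4, HOXC8 and HOXD8 were 0.06, 0.04 and 0.03. HOXC12 was −0.02, HOXA7 0.07 and HOXB7 −0.08 at 1 hr.

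HOXD9 was the only HOX gene whose ratio differed among the 4 time points at an unadjusted p under 0.05 in the moderated F-test (p = 0.013), against 8.18% of all genes. Its adjusted p was 0.567. The difference was 0.51 ± 0.15 between 1 hr and 30 min, 0.53 ± 0.15 between 2 hr and 30 min and 0.41 ± 0.15 between 3 hr and 30 min, with adjusted p = 0.389, 0.171 and 0.982. Without the 2 arrays of widest spread these differences were 0.32, 0.34 and 0.21 (each ± 0.12, adjusted p = 0.519, 0.261 and 0.980), and the F-test had p = 0.043. HOXD3 and HOXB3 followed with p = 0.062 and 0.068. The arrays of 30 min and 3 hr carry dates in the headers of the scanner output that no other time point shares, so that no comparison within a date can be had for them. For the 2 dates that held both 1 hr and 2 hr (11 and 10 arrays), limma was run on 12 means per replicate, orientation and date. Dye switches of the same RNAs thus counted as independent samples, and these errors and p-values do not measure the spread between biological replicates. The difference of 2 hr from 1 hr on those dates was 0.23 ± 0.18 for HOXA3, 0.33 ± 0.17 for HOXB3, 0.22 ± 0.17 for HOXD3 and −0.22 ± 0.21 for HOXB7, with p = 0.224, 0.077, 0.202 and 0.324. Over all arrays these were 0.27, 0.26, 0.28 and −0.27, the 4 HOX genes with an unadjusted p under 0.05 in that contrast, against 4.99% of all genes. On those dates 0 HOX genes had an unadjusted p under 0.05 (1.33% of all genes). The sign was that over all arrays for 33 of 39 HOX genes. As the same arrays enter both differences, this was in part fixed in advance, and the share of all genes was not counted.

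The signal of the HOX probes relative to the array median did not differ among time points at an adjusted p under 0.05 for any HOX gene, against 0.598% of all genes. At an unadjusted p under 0.05 there were 6, among them HOXA4, HOXB3, HOXB6, HOXB8 and HOXC6, against 17.6% of all genes. HOXB6 was 1.60 at 30 min, 0.98 at 1 hr, 0.84 at 2 hr and 2.21 at 3 hr on the log2 scale above the array median (p = 0.0027, adjusted p = 0.141). HOXB3 was higher at 1 hr and 2 hr (0.41 and 0.36) than at 30 min and 3 hr (−0.25 and −0.38, p = 0.0081, adjusted p = 0.159). HOXC6 was highest at 30 min, at 1.36, and HOXA4 was highest at 3 hr, at 1.81. In HOXC6 the replicates at 30 min were 0.95 and 1.77, and those of the later time points ran from −0.21 to 0.68. How many of all genes lay apart in this way was not counted. This signal averages the laser and control channels, and the arrays of 30 min and 3 hr share no header date with another time point. Header date and time point cannot be told apart in these differences. Correlations between replicates of a time point across the 39 HOX genes were 0.85, 0.89, 0.82 and 0.89 for this signal and −0.13, −0.05, −0.00 and 0.10 for the ratio. These describe the probes, which share arrays. The order of the probes was thus alike in both replicates while their ratios were not.

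**Figure D5:**
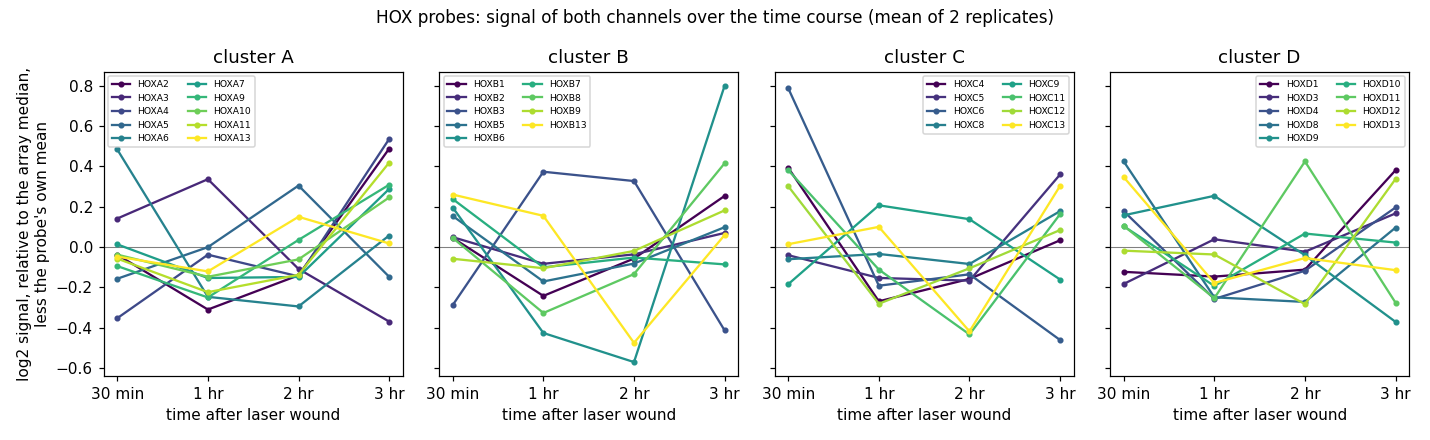
Log2 signal of the HOX probes relative to the array median, less the probe's own mean over the 4 time points, plotted against the time after the laser wound in 1 panel per cluster (mean of 2 replicates). HOXB6 and HOXB3 in cluster B move in opposite directions, and no HOX gene passed an adjusted p under 0.05.

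The TALE cofactors of HOX proteins were on the array with all 10 of the names listed. None passed an unadjusted p under 0.05 at 30 min, 2 hr or 3 hr, against 8.91%, 10.9% and 3.79% of all genes. MEIS2 and PKNOX2 passed at 1 hr, where 2.66% of all genes did. At 1 hr MEIS2 was −0.21 ± 0.08 (replicates −0.11 and −0.31) and PKNOX2 −0.23 ± 0.08 (−0.10 and −0.35), with adjusted p = 0.999. The list had medians of −0.04, −0.04, −0.01 and 0.06. Both genes were above 0 (0.23 and 0.35) with no array turned.

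Of 23 listed regulators of HOX expression 20 were on the array, and 9 passed an unadjusted p under 0.05 at 1 time point or more, none with an adjusted p under 0.05. At 30 min 3 were higher and 1 lower, at 1 hr 2 were lower, at 2 hr 5 were lower and at 3 hr none passed, while the medians were 0.04, 0.02, −0.03 and −0.02. Of all genes, 8.91%, 2.66%, 10.9% and 3.79% had an unadjusted p under 0.05 in either direction at these time points. With no array turned, CDX1 and RNF2 at 30 min were −0.17 and −0.14, and RNF2 and BMI1 at 1 hr were 0.10 and 0.19. At 2 hr CDX4 was 0.12, EGR2 0.19, MLL 0.03 and BMI1 0.50 on this scale. CDX2, MLL2 and EDR1 were −0.10, 0.23 and −0.01 at their time points. CDX genes activate trunk HOX genes, and CDX1 was 0.21 ± 0.09 and CDX2 −0.26 ± 0.09 at 30 min, in opposite directions. RNF2, a Polycomb ubiquitin ligase, was 0.27 ± 0.07 at 30 min (p = 0.0027, adjusted p = 0.256) and −0.17 ± 0.07 at 1 hr. BMI1, its partner in the same complex, had −0.59 and −0.28 in the replicates at 2 hr (mean −0.43 ± 0.10, p = 0.00055, adjusted p = 0.209). EDR1, a further Polycomb gene, was −0.28 ± 0.08 at 2 hr. MLL, which keeps HOX genes active, was −0.22 ± 0.08 at 2 hr, EGR2, a hindbrain regulator of group 2 genes, −0.23 ± 0.08, and CDX4 −0.18 ± 0.08. MLL2 was 0.23 ± 0.08 at 30 min. Of the homeobox genes next to the clusters or related to them, 13 of 16 were on the array. GBX2 was 0.21 ± 0.08 at 1 hr, EVX1 −0.18 ± 0.08 and DLX2 −0.24 ± 0.10 at 2 hr, and none passed at 30 min or 3 hr. With no array turned these 3 genes were −0.21, 0.27 and 0.39.

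Markers of the sensory epithelium and of other cells that cultures could hold were read for the presence of signal and for their ratio. Of 30 markers listed 28 were on the array, and 7, 27, 21 and 15 were detectable at the 4 time points. Of all genes, 32.1%, 92.2%, 85.5% and 57.3% were detectable. All 3 hair cell markers (ATOH1, POU4F3 and GFI1) were detectable at 1 hr and 2 hr, and none at 30 min. All 7 markers of the sensory epithelium on the array were detectable at 1 hr. Markers of muscle (4 of 4), blood (4 of 4) and melanocytes (2 of 2) were equally detectable at 1 hr, and none of these 10 was at 30 min. At 30 min 3 of 7 markers of the sensory epithelium, 3 of 4 neuron markers and 1 of 4 mesenchyme markers were detectable. At all time points 2 of 7 markers of the sensory epithelium and 2 of 4 neuron markers were detectable, against 29.8% of all genes. None of the hair cell, mesenchyme, muscle, blood and melanocyte markers was. As the rule did not separate most genes from the control spots, these counts do not show which cells the cultures held. No hair cell, periotic mesenchyme or melanocyte marker had a ratio with an unadjusted p under 0.05. At 30 min, where HOXD9 was lower, 1 of 4 neuron markers (NEUROG1, 0.56 ± 0.10, adjusted p = 0.0685) was higher and 1 of 7 markers of the sensory epithelium (EYA1, −0.20) was lower. At 1 hr EMX2 of the sensory epithelium was −0.23 and LYL1 of blood −0.19, and at 2 hr PAX2 was −0.31 and EMX2 −0.24. At 3 hr, where the genes of group 8 were above 0, SPI1 of blood was −0.21 and MYOD1 of muscle −0.18. With arrays left unturned, NEUROG1 was 0.08 and EYA1 0.20 at 30 min, and LYL1 was 0.29 at 1 hr. PAX2 was 0.28 at 2 hr and MYOD1 0.15 at 3 hr. EMX2 was −0.19 at 1 hr and −0.11 at 2 hr, and SPI1 was −0.15 at 3 hr. A different share of cells and a different amount of RNA per cell cannot be told apart in these cultures, and the part of these markers in the HOX ratios was not tested.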

How the data were processed

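The authors deposited, for each channel of the 77 arrays, spot intensities and local background intensities as ImaGene software measured them, with no correction or normalization. They also deposited a table of log2 ratios, which was checked and equals the raw log2 ratio of laser over control to within 5.77e-15, so that it was used only as an alternative. The study selected hybridizations and applied LOWESS, and which arrays it selected is not given in the sources used here, so all were used. Background was corrected by normexp (offset 50), followed by loess normalization within each array, with 27 control names at weight 0, in limma 3.58.1 under R 4.3.3. The mean of duplicate spots was taken, signs were turned on arrays that had the laser RNA in Cy3, and arrays of each orientation and then both orientations were averaged to 8 biological replicates. Of 1507 gene names, 1504 were tested, those whose mean signal reached 1000 at any time point. Time point means were tested against 0, and against each other by contrasts and a moderated F-test (lmFit and eBayes). P-values rest on the spread between the 2 pools of cultures of a time point, shared over the 4 time points and drawn toward that of all genes. They do not measure the spread of the 2 pools of a single time point. Precision is limited by how many arrays and replicates there were. The duplicate spots of a HOX gene differed by 0.22 in the log2 ratio (median), and its arrays of 1 orientation and time point had a standard deviation of 0.33 (median).

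The genes given with their values were HOXA4, HOXC10 and HOXD1, which the study names for the cochlea, and HOXD8. The study names HOXD8 as changed in both tissues and both treatments. Values were also given for HOX genes with an unadjusted p under 0.05, the largest ratio of each time point and the 5 largest dye differences. Genes whose signal differed at an adjusted p under 0.05 were to be named too, and there were none, so that those named for their signal, and all other members given by name, were chosen after their values were seen. The members and all lists were chosen with earlier results of these data known. The procedure was tested on simulated data. Alternatives changed the background correction, normalization, filter, source of values, averaging, orientation, test and blocks, and left out each replicate. Another 3 alternatives were added with the data in view, that is, chosen after seeing the data: medians over arrays, leaving out the 2 arrays of widest spread, and 2 hr against 1 hr on shared header dates. Probe sequences were not used here. The name, values and plotted points of 1 member are not reported here, and it stays in all counts, ranges and medians.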

Additional observations from a re-analysis of the deposited data

Results flagged for a closer look

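HOXD9 was the 1 HOX gene of 39 whose ratio of laser over control differed among the 4 time points by a test of the difference itself (moderated F-test in limma, unadjusted p = 0.0134, adjusted p = 0.567). Of all genes, 8.18% had an unadjusted p under 0.05 in this test. HOXD9 was −0.42 at 30 min, with both replicates below 0, and 0.09, 0.11 and −0.02 at 1 hr, 2 hr and 3 hr. Without replicate 1 its mean at 30 min was −0.16. Its Cy3 signal exceeded its Cy5 signal in both orientations in 6 of 8 replicates. The exceptions were both replicates at 30 min, where the ratio was below 0 in both orientations. The 2 arrays of widest spread, both in replicate 1 at 30 min, gave −3.37 and −2.99, and without them the F-test had p = 0.043 and the mean at 30 min was −0.23. Groups of 2 biological replicates are too small for a test of single outlying samples.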

How the results depend on the processing

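The counts of HOX genes past the threshold of the study (1, 0, 0 and 0 at 30 min, 1 hr, 2 hr and 3 hr) moved with the dye orientation, and so did the shares of all genes. With the laser RNA in Cy3 only they were 6, 3, 7 and 4 (15.2%, 22.4%, 31.2% and 13.4% of all genes), with it in Cy5 only 5, 2, 10 and 9 (15.4%, 9.51%, 19.5% and 22%), and with no array turned 5, 2, 10 and 5 (13.2%, 17.4%, 24.5% and 17.6%). In these settings 3, 3 and 10 HOX genes had an adjusted p under 0.05 (13.8%, 7.58% and 26.9% of all genes), against 0 (0%). The ratio differed among time points for 2 with Cy5 only (6.91%) and for 4 with no array turned (13.9%), against 1 (8.18%). With no array turned HOXB7 was −0.084 at 1 hr, and HOXA3 and HOXB3 were −0.194 and −0.067 at 2 hr. With the log2 table as deposited the counts were 7 at 30 min, 6 at 2 hr and 1 at 3 hr (14.2%, 12.4% and 2.73% of all genes), 5 differed among time points (12.7%), and HOXA3 and HOXB3 turned to −0.054 and −0.044 at 2 hr. The same table centred on array medians gave 2 at 30 min (3.59% of all genes). Plain background subtraction gave 1, 3 and 2 at 1 hr, 2 hr and 3 hr (1.66%, 6.25% and 2.46% of all genes). Scale normalization gave 1 at 3 hr (2.33%). With all arrays and the replicate as a random effect 2 passed at 30 min (HOXC9 and HOXD9, against 4.32% of all genes). Both had an adjusted p under 0.05, which held at any time point for 2.59% of all genes. The correlation fitted within a replicate was −0.01. Repeat arrays and dye switches of the same RNAs thus counted nearly as independent samples in this setting, and its p-values do not measure the spread between biological replicates. The replicates of HOXC9 at 30 min lay on opposite sides of 0. In that setting 5 differed among time points (12.7%). With the header date as a random block 2 passed at 30 min (1.99% of all genes) and 1 at 2 hr (HOXC12, 2.06%), and 4 differed among time points (7.98%). This block was fitted to means per replicate, orientation and date, so that dye switches of the same RNAs counted as separate samples. No background correction, scale normalization, equal weight of arrays and medians over arrays each gave 2 that differed among time points (9.11%, 6.12%, 7.05% and 4.79% of all genes). With no fold threshold the counts were 2, 1, 4 and 2 (8.91%, 2.66%, 10.9% and 3.79% of all genes). The methods' t-test gave the same counts as the main fit (2.53%, 0.199%, 2.33% and 0.798% of all genes), and 0 after Benjamini-Hochberg adjustment at each time point. On header dates that held both time points, 0 HOX genes differed between 2 hr and 1 hr (1.33% of all genes), against 4 (4.99%). The samples there were means per replicate, orientation and date, and not biological replicates.

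Leaving out 1 replicate at a time gave 1 to 4 HOX genes at 30 min, 0 to 1 at 1 hr, 0 to 7 at 2 hr, 0 to 3 at 3 hr, 0 to 1 with an adjusted p under 0.05, 0 to 4 that differed among time points and 7 to 13 with a dye difference. The highest counts came without replicate 2 at 30 min (4, against 9.84% of all genes, and HOXC9 with an adjusted p under 0.05), without replicate 1 at 1 hr (1, 2.59%), without replicate 2 at 2 hr (7, 14.4%) and without replicate 1 at 3 hr (3, 5.25%). In these fits the lone replicate is assumed to vary like the others. The dye difference, found for 11 HOX genes (32.9% of all genes), was found for 6 with plain subtraction (23.5%), 19 with median centring of each array (52.7%), and 7 without replicate 2 at 2 hr (27.1%) or at 3 hr (25.7%). Instead of 11 HOX genes (29.8% of all genes), 20 were detectable at all time points with a level of 800 (53%), 5 with 1200 (17.9%), 21 with 2 times the local background (68.4%), and 0 on all arrays (5.77%) or above the 95th percentile of the control spots (1.59%). Replicate numbers did not pair the samples (correlations of deviations from −0.25 to 0.17). A replicate block left 1 HOX gene at 30 min and 0 at the other time points, and HOXC8 at 3 hr had p = 0.0511 with it. Of the ratios of single HOX genes under alternatives, 175 kept their direction and their side of the p threshold, 69 lost it, 6 gained it and 5 turned. These alternatives include the setting with no array turned, where the laser effect cancels if the labels hold. The cause of these changes was not tested.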
